A study of Mus musculus with 8 samples.

Results

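The genes described here are 36 named genes of glycolysis and of the response to low oxygen, out of 55228 gene symbols in the deposited files. They were taken by symbol, and estimated counts and TPM were summed over each gene's transcripts. They comprise 4 glucose and lactate transporters, 17 glycolytic enzymes, 3 regulators of glycolytic flux, the factor Hif1a with 2 oxygen sensors, and 9 further genes known to respond to hypoxia. The RNA came from cells sorted as CD8 T cells out of B16 tumours, B16 being a mouse melanoma cell line. The tumours were borne by wild-type C57BL/6 mice, here WT, and by mice labelled CD36 KO on the C57BL/6 background, here CD36_KO. Mice of both genotypes had received B16 cells intravenously 14 days earlier. The series set out to compare tumour-infiltrating CD8 T cells of the 2 genotypes. The sources used here do not give the age or sex of the mice, the number of animals behind each library, the sorting gate or the deleted part of Cd36.

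Glycolysis splits glucose into pyruvate in the cytosol and yields ATP without oxygen. Lactate dehydrogenase turns pyruvate into lactate, which monocarboxylate transporters carry out of the cell. When oxygen is scarce, prolyl hydroxylases of the Egln family no longer mark the HIF-alpha subunit for destruction, and the HIF dimer then binds short DNA elements near its target genes. Those targets include most glycolytic enzymes, the glucose transporter Slc2a1, the angiogenic factor Vegfa and the mitophagy receptor Bnip3. Activated T cells and many tumour cells, melanoma cells among them, run glycolysis at a high rate even where oxygen is present.

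The 8 deposited samples were 4 sequencing lanes of 1 library per genotype, so no difference between genotypes has a replicate check and none carries a p-value. WT lanes held 2497048 to 2538468 estimated counts and CD36_KO lanes 2569962 to 2611740. Intervals below are 95% intervals for counting error only, and they treat as independent molecules reads that carry no molecular identifiers. SDs over lanes likewise measure the spread of sequencing, not of animals. Cd36 itself, which encodes a scavenger receptor for fatty acids and oxidised lipoproteins, had 287, 299, 307 and 301 counts in the WT lanes and 107, 86, 88 and 77 in the CD36_KO lanes. It was lower in each CD36_KO lane than in any WT lane, which goes with the labels, and its log2 ratio was -1.98 (-2.15 to -1.80). The CD36_KO library thus kept 25.4% of the WT level. Of the measured genes, defined below, 33.3% were likewise lower in every CD36_KO lane, so Cd36 is no distinct check of the labels. The label CD8 T cell was only in part borne out by markers. All 12 CD8 T cell markers were detected, with summed levels of 147 to 163 TPM in WT lanes and 714 to 783 TPM in CD36_KO lanes. The 14 melanoma markers summed to 1275 to 1387 TPM in WT lanes and 457 to 468 TPM in CD36_KO lanes, and the 17 macrophage and monocyte markers to 2184 to 2319 TPM and 2356 to 2413 TPM. By these lists both libraries held more macrophage than CD8 T cell marker RNA, and the WT library more melanoma than CD8 T cell marker RNA. The lists differ in size, and most of the macrophage and monocyte sum was 1 gene, Lyz2, at 1316 TPM in WT and 1520 TPM in CD36_KO.

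Most of the glycolysis and hypoxia genes were lower in the CD36_KO library. Of the 36, 35 had a mean of at least 5 CPM (counts per 1000000 after scaling) and were called measured, and Eno2 stood under that minimum. The mean is over both libraries, and Adm and Ankrd37 reached the minimum only through the WT library. Adm had 9.89 CPM in WT and 1.08 CPM in CD36_KO, and Ankrd37 had 8.82 and 2.43 CPM. Both are among the lower genes counted next. By the log2 ratio of TMM-scaled CPM, CD36_KO over WT, 24 of the 35 were at least 2-fold lower with an interval that excluded 0, 1 was at least 2-fold higher, and 10 lay between. Among all 12167 measured genes, 10.7% were lower and 6.51% higher by the same rule. The median log2 ratio of the 35 was -1.58, against -0.13 for all measured genes. The range ran from -3.19 for Adm to 1.05 for Slc2a3. Of all 36, 32 lay below the median of all measured genes. By TMM-scaled CPM every CD36_KO lane lay below every WT lane for 32 of the 36 and above for Slc2a3 and Pfkfb4, against 33.3% and 19.6% of measured genes. In these bulk libraries fewer cells of a type and less RNA per cell cannot be told apart. The melanoma marker RNA given above was also lower in the CD36_KO lanes, and its part in these differences was not tested.

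These counts depended on the scale. On the log2(TPM + 1) scale, which divides by transcript length and understates the change of low genes, 15 of the 35 were at least 2-fold lower and 2 at least 2-fold higher, where 2.66% and 12.3% of all measured genes were. The median of all measured genes moved from -0.13 to 0.37 between the scales, a shift of 0.50. The median of the 35 on the TPM scale was -0.83, which is 1.19 log2 units under that of all measured genes. Relative to the median of all genes it had been 1.45 log2 units under with TMM. On the TPM scale 33 of the 36 lay below the median of all measured genes. The 9 genes that were lower by the main rule but within 2-fold on the TPM scale were Slc2a1, Slc16a3, Gpi1, Aldoc, Pkm, Ankrd37, P4ha1, P4ha2 and Ddit4. All 36 together took 2751 ± 89.8 TPM in WT lanes and 1393 ± 34.8 TPM in CD36_KO lanes (SD, 4 lanes each). That is 0.275% and 0.139% of all TPM. The lanes did not overlap, since the lowest WT lane held 2645 TPM and the highest CD36_KO lane 1440 TPM.

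**Figure D1:**
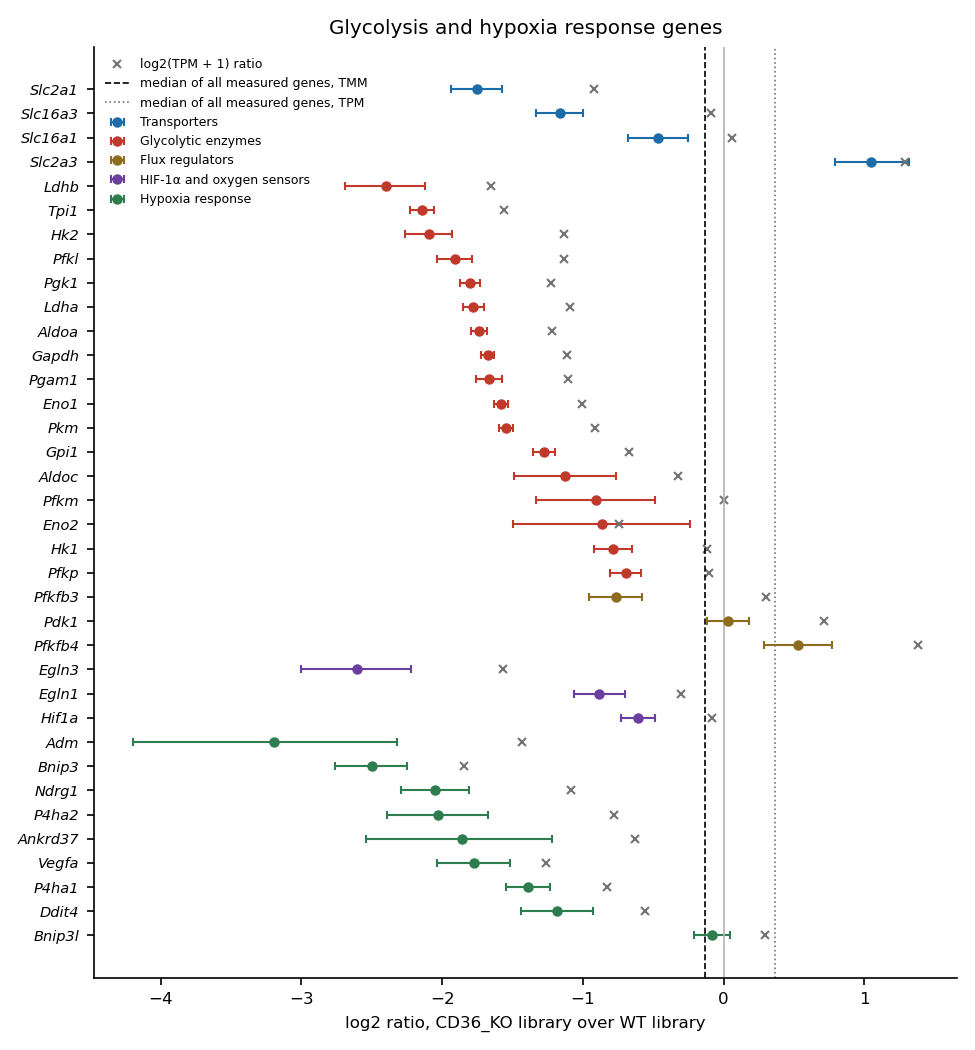
Log2 ratio of TMM-scaled CPM, CD36_KO library over WT library, of the 36 genes in order of role, with points and bars for the ratio and its 95% counting interval. Crosses give the log2(TPM + 1) ratio, and vertical lines give the medians of all 12167 measured genes, -0.13 (TMM) and 0.37 (TPM). Most genes lie left of both lines, while Slc2a3, Pfkfb4 and Pdk1 (0.03 and 0.71) lie right of 0 on both scales.

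The genes were also examined for the letters that HIF is known to bind. The core of the hypoxia response element is read here as ACGTG or GCGTG on either strand, which appears as CACGT or CACGC on the other. Where ACGTG and CACGT overlap as CACGTG, that stretch counts as 2 matches. RefSeq windows of 250 bases upstream of the gene start were found for 33 of the 36 genes, and Slc2a3, Bnip3l and Ndrg1 were not matched. At least 1 match stood in 28 of the 33 windows (84.8%), against 38.6% of all 32851 windows of the same length and 55.1% of the windows of measured genes. The 33 are each the window nearest the start of the gene's most abundant transcript, while the comparison shares pool every listed window. These selections differ. The nearest window lay 25478 bases from that start for Pfkfb4 and 6061 bases for Eno2. Among measured genes that were at least 2-fold lower in CD36_KO the share was 53.2%. The 28 comprised 19 of the 23 windows of genes called lower and 9 of the 10 windows of the other genes, so matches were no less frequent among the genes that were not called lower. The windows of Gpi1, Tpi1, Eno2, Pkm and Vegfa held none of these letters. A match is a description of the letters and not evidence of binding.

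To show how these windows differ, 5 are printed 5′ to 3′ on the gene's strand, with the matches in capitals. Ldha and Bnip3 have the most matches of the 33. Pgk1 and Egln3 are lower genes with fewer matches, 2 and 1, and Pdk1 is a classical HIF target that was not called on either scale.
Ldha, GRCm38.p6 chr7:46845554-46845803, plus strand: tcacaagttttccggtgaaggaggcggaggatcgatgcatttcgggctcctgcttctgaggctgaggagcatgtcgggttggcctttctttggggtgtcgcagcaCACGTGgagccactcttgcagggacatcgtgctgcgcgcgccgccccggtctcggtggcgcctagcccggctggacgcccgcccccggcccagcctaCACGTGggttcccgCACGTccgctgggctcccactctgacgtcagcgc
Pgk1, GRCm38.p6 chrX:106186850-106187099, plus strand: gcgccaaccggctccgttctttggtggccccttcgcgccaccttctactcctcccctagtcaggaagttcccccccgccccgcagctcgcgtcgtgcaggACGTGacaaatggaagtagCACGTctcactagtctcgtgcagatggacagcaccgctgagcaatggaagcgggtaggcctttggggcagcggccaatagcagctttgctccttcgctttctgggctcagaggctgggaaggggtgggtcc
Bnip3, GRCm38.p6 chr7:138909507-138909756, minus strand: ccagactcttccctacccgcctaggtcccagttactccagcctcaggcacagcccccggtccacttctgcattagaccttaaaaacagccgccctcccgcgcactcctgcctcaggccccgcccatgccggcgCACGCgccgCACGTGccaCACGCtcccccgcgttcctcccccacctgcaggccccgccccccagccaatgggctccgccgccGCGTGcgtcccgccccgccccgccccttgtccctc
Egln3, GRCm38.p6 chr12:54203875-54204124, minus strand: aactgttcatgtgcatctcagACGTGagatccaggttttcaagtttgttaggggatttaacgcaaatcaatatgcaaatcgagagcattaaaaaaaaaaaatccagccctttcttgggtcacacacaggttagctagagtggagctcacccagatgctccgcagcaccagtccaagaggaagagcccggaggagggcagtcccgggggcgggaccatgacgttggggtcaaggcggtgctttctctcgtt
Pdk1, GRCm38.p6 chr2:71872974-71873223, plus strand: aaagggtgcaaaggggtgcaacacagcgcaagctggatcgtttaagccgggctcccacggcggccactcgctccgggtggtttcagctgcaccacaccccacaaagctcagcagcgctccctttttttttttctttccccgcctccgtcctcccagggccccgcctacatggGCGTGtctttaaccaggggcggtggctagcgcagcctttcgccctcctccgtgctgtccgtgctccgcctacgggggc
The Ldha window holds 5 matches, which lie 145, 144, 48, 47 and 34 bases upstream of the start by their first base and include the palindrome CACGTG at 2 places. Bnip3 also has 5, at 117, 108, 107, 99 and 35 bases. Pgk1 has ACGTG at 150 and CACGT at 131 bases. Egln3 and Pdk1 have 1 match each, at 229 and at 78 bases. Egln3 had a log2 ratio of -2.60 and Pdk1 one of 0.03.

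The glucose transporters moved in opposite directions. Slc2a1 (GLUT1; GRCm38 chromosome 4, 119108711 to 119137983) is the widely expressed, HIF-responsive carrier of basal glucose uptake. It had 247, 231, 232 and 228 counts in the WT lanes and 85, 74, 83 and 86 in the CD36_KO lanes. Its log2 ratio was -1.75 (-1.94 to -1.57), and its level per length was 19.7 ± 0.846 TPM against 9.95 ± 1.79 TPM, a log2(TPM + 1) ratio of -0.92. Slc2a3 (GLUT3; chromosome 6, 122727809 to 122801640) is a high-affinity carrier known from neurons and leukocytes. It had 38, 46, 45 and 45 counts in the WT lanes and 102, 117, 113 and 94 in the CD36_KO lanes. Every Slc2a1 lane was lower and every Slc2a3 lane higher in CD36_KO than in WT, with no overlap in either gene. The log2 ratio of Slc2a3 was 1.05 (0.79 to 1.31), and it was the single gene of the 36 called higher by the main rule. Its level per length was 3.30 ± 1.45 TPM in WT and 9.49 ± 0.960 TPM in CD36_KO.

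Slc16a3 (MCT4), the carrier of lactate export in glycolytic cells, had 201, 221, 231 and 211 counts in the WT lanes and 110, 111, 110 and 124 in the CD36_KO lanes. The lanes did not overlap, and the log2 ratio was -1.16 (-1.33 to -0.998). Per length its level hardly differed, at 29.6 ± 2.87 TPM against 27.7 ± 4.18 TPM. By transcript, Slc16a3-201 had 564 estimated counts against 94.1, while Slc16a3-202 had 75.8 against 119 and Slc16a3-208 had 72.0 against 129. Such division of reads among overlapping transcripts is less certain than the total of the gene. Slc16a1 (MCT1), which carries lactate in either direction, lay between, with 91 to 109 counts per WT lane, 75 to 98 per CD36_KO lane and a log2 ratio of -0.47 (-0.68 to -0.25) and 0.06 on the TPM scale.

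All 17 glycolytic enzymes were lower by TMM-scaled CPM in every CD36_KO lane than in every WT lane. Of the 16 that were measured, 13 were at least 2-fold lower and 3 lay between, with a median log2 ratio of -1.67. On the TPM scale 10 were at least 2-fold lower and 6 lay between. The summed level of the 17 was 2485 ± 85.8 TPM in WT lanes and 1172 ± 25.4 TPM in CD36_KO lanes. Of the 12 genes of the 36 with a mean of at least 100 CPM over both libraries, 10 were lower, against 13.2% of the 1294 genes of that level. Pfkl (235 CPM in WT, 62.5 CPM in CD36_KO) and Hif1a (138 and 90.7 CPM) reached that level only through the WT library. The other 2 were the enzyme Pfkp and the factor Hif1a.

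In the upper part of the pathway, Hk2, the hexokinase that traps glucose in the cell and is induced by HIF and MYC, had 347, 335, 374 and 334 counts in the WT lanes and 86, 97, 101 and 100 in the CD36_KO lanes. These lanes stood far apart, and the log2 ratio was -2.09 (-2.26 to -1.93). Hk1, the housekeeping hexokinase, had 254 to 284 counts per WT lane and 157 to 193 per CD36_KO lane, a log2 ratio of -0.79 (-0.92 to -0.65). Gpi1, which turns glucose 6-phosphate into fructose 6-phosphate, had 983 to 1078 and 496 to 522 counts per lane and a log2 ratio of -1.28 (-1.35 to -1.20). Of the phosphofructokinases, which commit sugar to glycolysis, the liver type Pfkl had 505 to 595 counts per WT lane and 161 to 187 per CD36_KO lane and a log2 ratio of -1.91 (-2.03 to -1.78). The platelet type Pfkp, with 365 to 403 and 261 to 293 counts per lane, stood at -0.70 (-0.81 to -0.58). The muscle type Pfkm stood at -0.91 (-1.33 to -0.49) and was low, with 28 to 34 counts per WT lane and 18 to 20 per CD36_KO lane, and its TPM-scale ratio was 0.01. Aldoa, the aldolase that splits fructose 1,6-bisphosphate, had 2188 to 2316 and 791 to 816 counts per lane and a log2 ratio of -1.74 (-1.79 to -1.68). This symbol covers 2 gene identifiers in the files. The brain type Aldoc, with 40 to 50 and 20 to 28 counts per lane, had a log2 ratio of -1.13 (-1.49 to -0.77).

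In the lower part of the pathway, Tpi1, which interconverts the 2 triose phosphates, had 1397, 1352, 1300 and 1258 counts in the WT lanes and 389, 343, 339 and 346 in the CD36_KO lanes. Its lanes did not overlap, and its log2 ratio was -2.14 (-2.23 to -2.06). Gapdh, the dehydrogenase often used as a loading control, had 3328, 3350, 3330 and 3378 counts in the WT lanes and 1307, 1306, 1148 and 1179 in the CD36_KO lanes. It was thus far from constant between these libraries, with a log2 ratio of -1.68 (-1.72 to -1.63). The kinase Pgk1, which forms the first ATP of the pathway, had 1407 to 1495 counts per WT lane and 461 to 531 per CD36_KO lane and stood at -1.80 (-1.88 to -1.73). The mutase Pgam1, with 835 to 941 and 299 to 342 counts per lane, stood at -1.67 (-1.76 to -1.58). The enolase Eno1, with 2687 to 2806 and 1007 to 1127, stood at -1.58 (-1.63 to -1.53). The intervals of Pgk1 and Eno1 do not overlap, while those of Pgk1 and Pgam1 do, and that of Tpi1 overlaps neither. Pkm, the pyruvate kinase, had 2756 to 2885 counts per WT lane and 1115 to 1154 per CD36_KO lane, a log2 ratio of -1.55 (-1.60 to -1.50). The neuronal enolase Eno2 had 57 counts over all WT lanes and 37 over all CD36_KO lanes and was not called.

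Lactate dehydrogenase has 2 subunits, of which the A subunit favours lactate formation and the B subunit its use. Ldha had 1435, 1411, 1462 and 1483 counts in the WT lanes and 525, 477, 494 and 494 in the CD36_KO lanes. Ldhb had 147, 136, 152 and 129 counts in the WT lanes and 42, 30, 28 and 26 in the CD36_KO lanes. Both subunits were lower in all CD36_KO lanes. The log2 ratio was -1.78 (-1.85 to -1.71) for Ldha and -2.40 (-2.69 to -2.12) for Ldhb. The B subunit thus had the lowest ratio of the 17 enzymes, but its interval overlaps those of Tpi1 and Hk2.

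**Figure D2:**
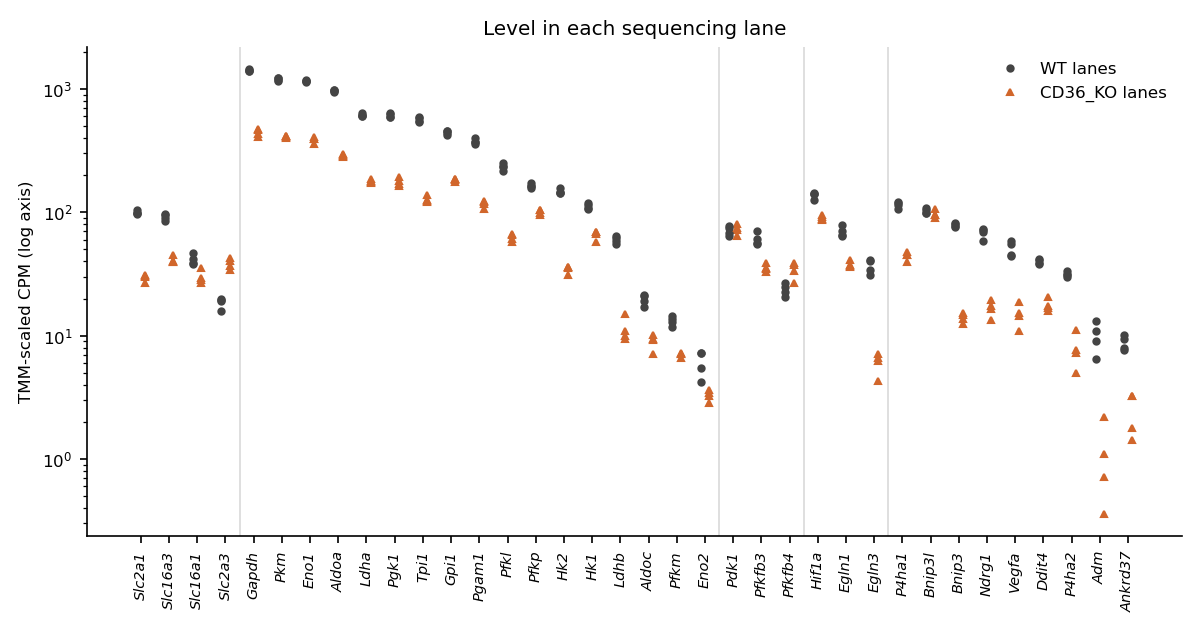
TMM-scaled CPM of each of the 36 genes in each of the 4 WT lanes (circles) and 4 CD36_KO lanes (triangles), on a log axis, grouped by role from transporters at the left to hypoxia response genes at the right. Every CD36_KO lane lies below every WT lane for 32 genes and above for Slc2a3 and Pfkfb4, and lanes overlap for Pdk1 and Bnip3l.

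Levels per length show where in the pathway the RNA was. Gapdh was the most abundant of the 36 genes in both libraries, at 620 ± 60.0 TPM in WT lanes and 286 ± 23.4 TPM in CD36_KO lanes. Aldoa followed at 369 ± 6.35 and 158 ± 6.09 TPM, Eno1 at 303 ± 3.19 and 151 ± 8.77 TPM, and Pkm at 271 ± 13.5 and 144 ± 4.62 TPM. In CD36_KO the lanes of Eno1 overlapped those of Aldoa and those of Pkm, so the place of Eno1 there is not settled by these lanes. Of the enzymes before the aldolase step, Gpi1 stood at 114 ± 7.24 and 70.8 ± 5.89 TPM, Pfkl at 36.8 ± 3.02 and 16.2 ± 2.51 TPM, and Hk2 at 14.0 ± 0.684 and 5.82 ± 0.345 TPM. Tpi1 stood at 186 ± 8.81 and 62.4 ± 4.29 TPM and Ldha at 205 ± 9.42 and 95.8 ± 7.36 TPM. Tpi1 had a higher mean than Pgk1 in WT (173 ± 10.2 TPM) and a lower mean than Pgk1 in CD36_KO (73.0 ± 4.81 TPM).

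**Figure D3:**
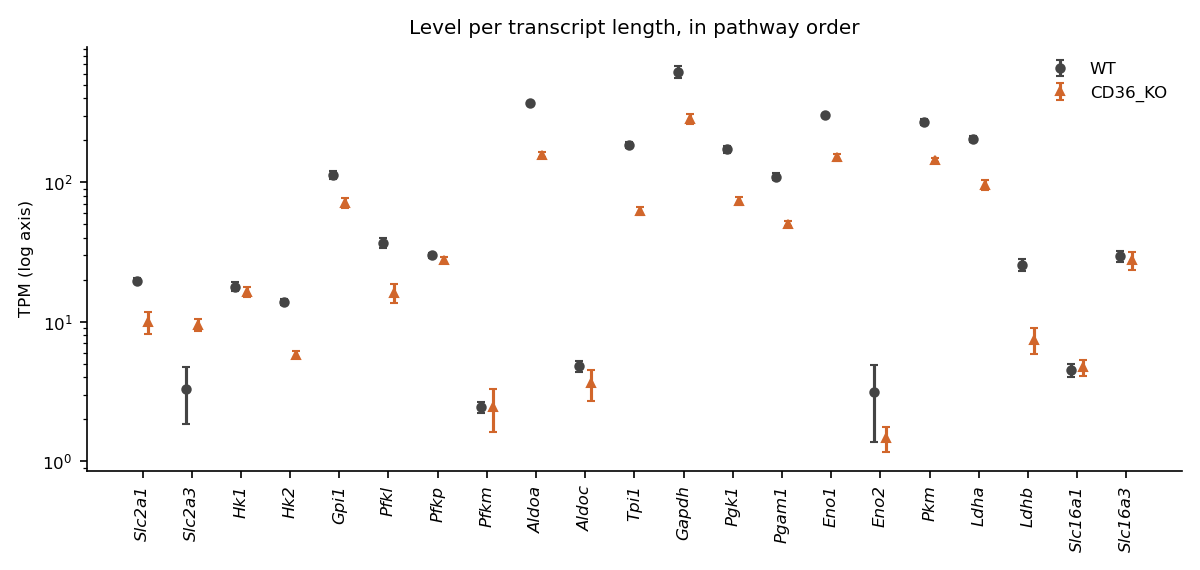
Mean TPM over 4 lanes with SD, on a log axis, of the transporters and enzymes in pathway order from glucose uptake at the left to lactate export at the right, WT as circles and CD36_KO as triangles. Gapdh, Aldoa, Eno1 and Pkm have the highest means in both libraries, and the mean of Slc2a3 is 3.30 TPM in WT and 9.49 TPM in CD36_KO.

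None of the 3 regulators of flux was called by the main rule. Pdk1, a kinase that inhibits pyruvate dehydrogenase, had 178, 158, 152 and 180 counts in the WT lanes and 202, 204, 224 and 178 in the CD36_KO lanes. Its lanes overlapped after scaling, and its log2 ratio was 0.03 (-0.12 to 0.18). On the TPM scale the ratio was 0.71, from 14.0 ± 2.41 TPM in WT and 23.5 ± 7.95 TPM in CD36_KO. Pfkfb3 and Pfkfb4 make fructose 2,6-bisphosphate, the activator of phosphofructokinase, and Pfkfb4 can also break it down. Pfkfb3 had 130 to 166 counts per WT lane and 92 to 106 per CD36_KO lane, a log2 ratio of -0.77 (-0.96 to -0.58) that was 0.30 on the TPM scale. Pfkfb4 had 54, 48, 59 and 62 counts in the WT lanes and 105, 107, 75 and 92 in the CD36_KO lanes, all of them higher. Its log2 ratio was 0.53 (0.28 to 0.77) and 1.38 on the TPM scale.

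The direction of Pfkfb4 turned with the transcripts counted. A transcript annotated as non-coding, Pfkfb4-205, had 105 estimated counts in WT and 236 in CD36_KO. The protein-coding Pfkfb4-201 had 93.7 and 23.5, but its lanes overlapped, at 2.87 to 37.0 in WT and 0 to 20.9 in CD36_KO. The division of reads among these transcripts is uncertain, so the direction of the coding part is uncertain too. Non-coding transcripts held 55.3% of the counts of Pfkfb4 in WT and 87.5% in CD36_KO, and its coding transcripts alone had a log2 ratio of -1.31 under the scaling of all genes, or -1.14 when the libraries were scaled on coding transcripts only. Pfkp showed a smaller shift of the same kind, from 34.6% to 53.7%. Its retained-intron transcript Pfkp-212 had 366 counts against 445, and its coding transcripts had a log2 ratio of -1.20 (-1.04 when scaled on coding transcripts only) against -0.70 for the whole gene. The coding transcripts of Slc2a3 had a log2 ratio of 1.28, so its direction was the same in both counts. Across the 36 genes, 19 had a larger non-coding share in CD36_KO, against 51.7% of measured coding genes.

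Hif1a, the oxygen-regulated subunit of HIF-1, had 335, 330, 300 and 334 counts in the WT lanes and 258, 242, 268 and 239 in the CD36_KO lanes. The lanes did not overlap, but the difference was under 2-fold, with a log2 ratio of -0.61 (-0.73 to -0.49) and -0.08 on the TPM scale. HIF-1 is controlled mainly through the stability of this protein, which RNA does not measure. Egln3, an oxygen sensor that is itself a HIF target, had 74, 80, 97 and 94 counts in the WT lanes and 12, 18, 20 and 17 in the CD36_KO lanes. It was among the lowest of the 36, with a log2 ratio of -2.60 (-3.00 to -2.22), and its level was 6.80 ± 0.981 TPM against 1.63 ± 0.335 TPM. Egln1, the main sensor in most cells, lay between, with 151 to 188 and 101 to 112 counts per lane and a log2 ratio of -0.88 (-1.06 to -0.70).

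Of the 9 hypoxia response genes, 8 were at least 2-fold lower and 1 lay between by the main rule, with a median of -1.86. On the TPM scale 4 were lower and 5 between, and none was higher on either scale. Bnip3, a mitophagy receptor, had 191, 182, 180 and 190 counts in the WT lanes and 41, 38, 43 and 34 in the CD36_KO lanes. Its lanes were far apart, and its log2 ratio was -2.50 (-2.76 to -2.25). The related receptor Bnip3l had 236, 251, 234 and 244 counts in the WT lanes and 266, 260, 253 and 295 in the CD36_KO lanes. After scaling its lanes overlapped, and its log2 ratio was -0.08 (-0.21 to 0.04), the opposite sign to the 0.29 on the TPM scale.

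Adm, the vasodilator peptide adrenomedullin, had the lowest ratio of the 36 and also few counts, with 31, 21, 26 and 15 in the WT lanes and 2, 3, 1 and 6 in the CD36_KO lanes. The lanes did not overlap, and the log2 ratio was -3.19 with a wide interval (-4.20 to -2.32). Vegfa, the main angiogenic growth factor, had 106, 136, 130 and 106 counts in the WT lanes and 43, 52, 31 and 39 in the CD36_KO lanes. It too was lower in every lane, and its log2 ratio was -1.77 (-2.04 to -1.51). Ndrg1, a stress-induced differentiation gene with 138 to 172 counts per WT lane and 37 to 54 per CD36_KO lane, stood at -2.05 (-2.29 to -1.81). P4ha1 and P4ha2 are the catalytic subunits of collagen prolyl hydroxylase. P4ha1 had 249 to 285 and 111 to 130 counts per lane and a log2 ratio of -1.39 (-1.54 to -1.23), and P4ha2 had 70 to 80 and 14 to 31 and a ratio of -2.03 (-2.39 to -1.68). Ddit4 (REDD1), an inhibitor of mTORC1 with 89 to 99 and 44 to 57 counts per lane, stood at -1.18 (-1.44 to -0.93). Ankrd37, a small HIF target, had 18 to 24 counts per WT lane and 4 to 9 per CD36_KO lane and a log2 ratio of -1.86 (-2.54 to -1.22). P4ha subunits are made in large amounts by matrix-producing cells, and of the 8 measured fibroblast and pericyte markers 5 were lower and 2 higher, and their median was -1.31. The collagen Col3a1 had a log2 ratio of -2.20. The 11 markers of that list summed to 135 to 156 TPM in WT lanes and 115 to 135 TPM in CD36_KO lanes, a sum that includes Thy1, also a T cell gene, at 15.6 and 63.7 TPM. The part of matrix-producing cells in the P4ha ratios was not tested.

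Genes that serve the same step were compared within pairs, since the difference of 2 log2 ratios does not depend on how the libraries are scaled. The interval of the difference excluded 0 in all 12 pairs, and 7 pairs differed by at least 2-fold. The 12 include the pair with Eno2, which was under the minimum of 5 CPM. The same counts over pairs of other genes are not given, so these have no background. In 9 pairs the gene named first had the lower ratio, but the order within pairs was set with earlier results known, so this count carries no weight. The largest difference was that of Slc2a1 and Slc2a3, at -2.80 (-3.13 to -2.48). Slc2a1 made up 85.8% ± 5.60 of the TPM of that pair in WT and 51.0% ± 6.46 in CD36_KO (SD, 4 lanes). Bnip3 and Bnip3l differed by -2.42 (-2.70 to -2.13), and its share went from 46.7% ± 5.28 to 15.4% ± 3.90. For Egln3 and Egln1 the difference was -1.72 (-2.16 to -1.29), and the share of Egln3 went from 42.0% ± 5.43 to 18.0% ± 3.39.

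Among the enzymes, Hk2 and Hk1 differed by -1.31 (-1.53 to -1.09), with a share of Hk2 of 43.9% ± 2.11 in WT and 26.3% ± 2.55 in CD36_KO. Pfkl and Pfkp differed by -1.21 (-1.38 to -1.04). By TPM of all transcripts Pfkl led in WT, at 55.1% ± 1.41, and Pfkp in CD36_KO, where Pfkl had 36.7% ± 3.54. This order is subject to the non-coding share of Pfkp given above. By coding transcripts alone the log2 ratios, -1.96 for Pfkl and -1.20 for Pfkp, were less than 2-fold apart. Pfkl then had more counts in both libraries, 2104 against 1007 in WT and 636 against 519 in CD36_KO. These counts are not divided by length. Pfkl and Pfkm differed by -1.001 (-1.44 to -0.55). Ldha and Ldhb went the other way, at 0.62 (0.33 to 0.92), and the share of Ldha was 88.9% ± 1.01 in WT and 92.8% ± 0.935 in CD36_KO. Pfkfb4 and Pfkfb3 differed by 1.29 (0.98 to 1.60), subject to the transcript shift described for Pfkfb4. The pairs Slc16a3 with Slc16a1 (-0.70), Aldoa with Aldoc (-0.61), Eno1 with Eno2 (-0.72) and P4ha1 with P4ha2 (0.64) differed by less than 2-fold. In TPM the Eno1 and P4ha1 pairs changed sign, to 0.09 and -0.01.

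**Figure D4:**
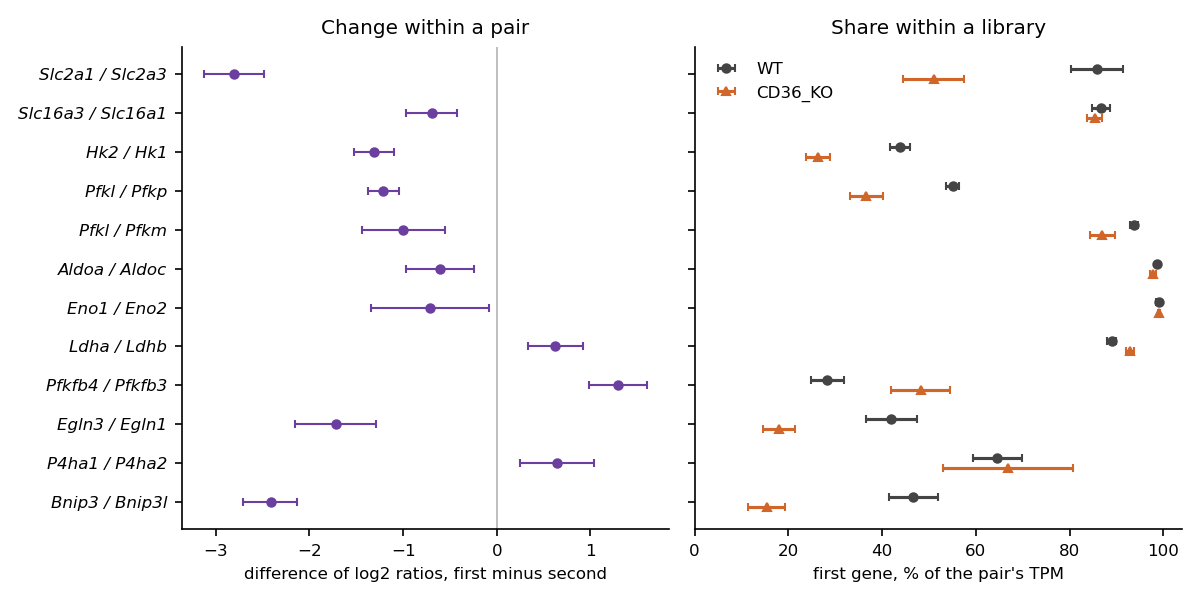
Left, difference of log2 ratios (CD36_KO over WT) between the 2 genes of each pair, the gene named first minus the other, with 95% counting interval. Right, share of the gene named first in the TPM of the pair, mean and SD over 4 lanes, WT as circles and CD36_KO as triangles. The Slc2a1, Bnip3 and Egln3 pairs differ most, with shares of the gene named first of 85.8% against 51.0%, 46.7% against 15.4% and 42.0% against 18.0%.

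Pkm is spliced to 1 of 2 exons of 167 bases each, which give the M1 or the M2 form of pyruvate kinase, the latter typical of proliferating cells. On chromosome 9 the upstream exon spans 59675029 to 59675195 and the downstream exon 59675568 to 59675734. Among estimated counts of transcripts with either exon, the upstream exon held 6.71% (exact binomial interval 6.24 to 7.20) in WT and 7.21% (6.45 to 8.04) in CD36_KO. Single lanes ranged from 4.48% to 8.21% and from 2.69% to 10.3%, so the libraries did not differ beyond the spread of lanes. The total of Pkm was lower in CD36_KO while the make-up of its exons was not detectably different.

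Several glycolytic genes have near-identical copies elsewhere in the genome, and kallisto divides reads among them. Copies with at least 95% identity over at least 300 bases and at least 50% of the copy's length, a definition chosen after seeing the data, were found for 12 of the 36 genes. Gapdh had 76 of the 96 copies. Together they held 7028 estimated counts in WT and 1748 in CD36_KO, which is 34.4% and 26.1% of the sum of Gapdh and its copies. Gm10359 and Gm12671, each 100% identical to Gapdh over 1002 bases, had 3259 and 706 counts each. With its copies the log2 ratio of Gapdh was -1.85 in place of -1.68. The copies of Pgk1 had 346 counts in WT and none in CD36_KO, and its ratio with them was -1.89. Pgam1-ps2 had 174 and 21.2 counts, and Pgam1 with it stood at -1.72. Adding copies moved no gene by more than 0.17 and changed no call.

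Outside the 36, 85 other genes of the same pathways were listed, of which 64 were measured. Of these 24 were at least 2-fold lower, 3 higher and 37 between, against the 10.7% and 6.51% of all measured genes. Other hypoxia genes held most of the lower ones, with 20 of 35 lower, none higher and a median of -1.18. The procollagen lysyl hydroxylase Plod2 had a log2 ratio of -2.52 and Ero1l, the oxidase of disulfide bond formation, one of -2.50. Of 20 measured other glycolysis genes, 4 were lower and 2 higher, and their median was -0.17. Among them, the phosphoglucomutase Pgm1 stood at -1.73 and the gluconeogenic enzyme Fbp1 at 1.69. Fbp1 is known from liver, and the 12 hepatocyte markers, with Alb the most abundant, summed to 102 to 133 TPM in WT lanes and 467 to 490 TPM in CD36_KO lanes. The part of liver RNA in the ratio of Fbp1 was not tested.

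Of 9 other measured genes of the HIF system, none was at least 2-fold lower, 8 lay between and 1 was higher. That gene was Epas1, which encodes HIF-2 alpha and is known from endothelium and macrophages. It had 561, 526, 536 and 543 counts in the WT lanes and 1774, 1709, 1721 and 1753 in the CD36_KO lanes, which stood well apart. Its log2 ratio was 1.45 (1.38 to 1.52), beside -0.61 for Hif1a. The 7 endothelial markers summed to 32.2 to 37.6 TPM in WT lanes and 65.3 to 66.4 TPM in CD36_KO lanes. By the main rule, however, all 6 measured endothelial markers lay between, with a median log2 ratio of 0.58. The part of endothelial cells or macrophages in the ratio of Epas1 was not tested.

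Routes that glycolysis feeds were closer to the median of all genes. Of 30 measured genes of pyruvate entry and the citric acid cycle, 2 were lower, the transaminases Got1 (-1.49) and Got2 (-1.30), and 28 lay between, with a median of -0.52. All 8 genes of the pentose phosphate pathway lay between, with a median of -0.50. Of 21 measured upstream drivers and brakes of glycolysis, the amino acid carrier Slc7a5 was lower (-1.21) and the arrestin Arrdc4, which promotes removal of glucose carriers, higher (1.18). No such gene list was compared with the 36 by a test.

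Markers of several cell types moved with these genes or against them. Of the 14 melanoma markers 13 were lower, with a median of -2.22, and the most abundant of them per length, Dct, had 324 ± 10.5 TPM in WT lanes and 104 ± 2.36 TPM in CD36_KO lanes. All 12 CD8 T cell markers were higher, with a median of 1.84. The macrophage list had 5 lower, 1 higher and 11 between, and its most abundant gene Lyz2 had a log2 ratio of -0.36. The fibroblast and pericyte list moved with the 36 genes in 5 of its 8 measured genes, as given above. All 6 measured endothelial markers lay between. All 5 measured erythroid, all 5 measured neutrophil and all 7 B cell markers were higher, as were 11 of the 12 hepatocyte markers. Glycolysis genes are expressed in all of these cell types, and the part of cell make-up in their differences was not tested.

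**Figure D5:**
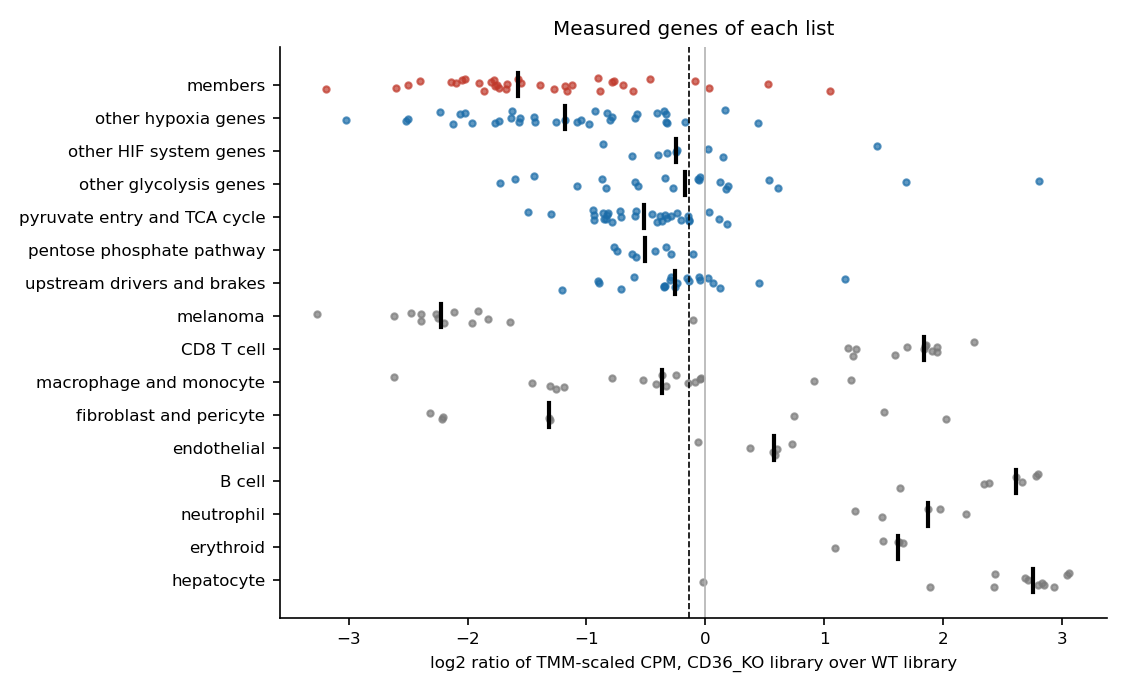
Log2 ratio of TMM-scaled CPM, CD36_KO library over WT library, of each measured gene (dots) of the 36 genes, of other gene lists and of cell type marker lists, with the median of each list as a black bar and the median of all measured genes, -0.13, as a dashed line. The 36 genes (median -1.58), other hypoxia genes (-1.18) and melanoma markers (-2.22) lie left, while CD8 T cell (1.84) and hepatocyte markers (2.76) lie right.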

How the data were processed

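RNA of cells sorted as CD8 T cells was sequenced, and 8 samples were deposited, which by their titles are 4 lanes of 1 library per genotype. Genotypes came from the labels. The authors quantified transcripts with kallisto on GRCm38.p6, with DESeq2 also named, per the submitters' processing notes. The sources used here give no versions, strand setting or annotation release. Estimated counts as deposited need not be whole and are not normalised. The deposited TPM values are scaled by the authors for effective length and lane total, so they keep no depth.

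Estimated counts were summed over transcripts by gene symbol, as the files give it, and over lanes, then rounded. A symbol was shared by several gene identifiers in 105 cases. Library totals were 10071958 (WT) and 10363392 (CD36_KO). With edgeR 4.0.16 (R 4.3.3), TMM factors of 0.934 and 1.071 were obtained. Genotypes were compared by the log2 ratio of TMM-scaled CPM with an exact Clopper-Pearson 95% counting interval, over genes whose mean reached 5 CPM. A gene was called at 2-fold with an interval excluding 0. Calls on the TPM scale used the log2(TPM + 1) ratio alone. Pair differences carry exact conditional intervals of the odds ratio of the 4 counts. No test of genotype was made, because lanes of 1 library say nothing of how animals vary. The ratio, interval and call steps were run on simulated counts with known folds and counting error only. Scaling, pair intervals, TPM calls, promoter matches, copies and the spread between animals were not simulated. Coordinates came from GENCODE M21 on GRCm38, promoter windows from RefSeq (GRCm38.p6), and copies from BLAST 2.17.0 searches of annotated transcripts. Python 3.11.15, pandas 2.3.3 and scipy 1.17.1 were used.

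The 36 genes, the other lists, the pairs and the alternatives were chosen with earlier results of these data known. The text names all 36, Cd36, at most 3 measured genes of each other list by absolute ratio, the most abundant gene of each cell type list, and transcripts only where at least 2 of them held at least 10% of a gene's counts in a library. Some genes that this rule allows are not reported here, and Thy1 and the copies named were chosen after their values were seen. The alternatives were total counts, DESeq2 1.42.0 size factors, TPM with a pseudocount of 1 or 0.1, other minimums (none, 20 CPM) and folds (1.5, 3), coding transcripts alone, copies added, and each lane left out.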

Additional observations from a re-analysis of the deposited data

Results flagged for a closer look

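Over the 36 genes and Cd36, 74 groups of 4 lanes were searched for a lane that stood apart from the other lanes of its library, where chance gives about 1 in 20 (5%), and 2 were found. For Pfkm, CD36_KO lane 2 was low at 6.54 CPM, with the other 3 CD36_KO lanes between 7.15 and 7.27 CPM. For Hif1a, WT lane 3 was low at 126.6 CPM, with the other 3 WT lanes between 141.1 and 143.0 CPM.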

How the results depend on the processing

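No paired analysis was possible because the replicate numbers are lanes of 1 library per genotype and no genotype test was made. The 24 lower genes became 15 with log2(TPM + 1) and 15 with log2(TPM + 0.1), and numbered 17 (3-fold) to 30 (1.5-fold) under the other settings. The 1 higher gene became 2 on both TPM scales and 0 at 3-fold. The median of -1.58 was -1.383 with total counts, -0.826 and -0.879 with TPM and pseudocounts 1 and 0.1, and -1.429 with protein-coding transcripts. Without single lanes it ran from -1.598 to -1.506, and the count of lower genes from 23 to 24. Cd36 stood at -1.779 with total counts and at -1.245 and -1.317 on the TPM scales. Of the other pathway genes, 24 lower became 11 and 13 on the TPM scales and 14 at 3-fold. Apart from 2-fold with TMM and with log2(TPM + 1), the shares of all measured genes under these settings are not reported here. The 7 pairs past 2-fold numbered 6 or 7 under the alternatives run, but these were not always the same pairs. With coding transcripts the log2 ratios, under the scaling of all genes, were -1.96 for Pfkl and -1.20 for Pfkp. Pfkfb4 then had -1.31 and Pfkfb3 -0.96, so both pairs came within 2-fold. Eno1 (-1.59) and Eno2 (0.11), the latter under the minimum of 5 CPM, instead passed 2-fold. With protein-coding transcripts Pfkfb4 reversed from 0.53 to -1.14 and Pfkp passed 2-fold at -1.04, while Aldoc lost its call at -0.996. With total counts Aldoc, Ddit4 and Slc16a3 came within 2-fold. Without WT lane 1 Adm stood under 5 CPM, at -2.97. The causes of these changes were not tested. DESeq2 size factors, named copies and sequence copies left the calls of the 36 genes the same. Depth limits Adm, Ankrd37, Eno2 and Pfkm most.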
